A study of Mus musculus with 24 samples.

Results

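Knockout vascular smooth muscle cells that had received PMCA4b were compared directly with knockout cells that had received nothing. These cells build the contractile layer of arteries, and once cultured they tend to lose contractile proteins and start to divide. PMCA4, encoded by Atp2b4, is a calcium pump of the plasma membrane that exports calcium, and the b form arises by splicing. The comparison took the 5 arrays of PMCA4b cells and the 5 arrays of untreated knockout cells, 10 of the 24 Illumina bead arrays of the series, and all 7675 genes measured.

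All cells were primary smooth muscle cells of the carotid artery of male C57bl6 mice. The knockout cells lacked PMCA4 (labelled PMC4 KO in 1 field), and the PMCA4b cells were the same knockout cells after electroporation with PMCA4b DNA. Both groups were serum-synchronized, by a step the labels do not detail, then given serum plus PDGF-BB, a platelet-derived mitogen, and harvested near the G1/S boundary of the cell cycle. No transfection is labelled for the untreated knockout arrays, and the growth protocol names electroporation only for cells given PMCA4b or vector DNA. The untreated cells were taken from this as not electroporated, which the labels do not state outright, and on that reading PMCA4b and electroporation cannot be told apart here. Knockout cells electroporated with vector A (5 arrays) or vector B (4 arrays), and wild-type cells (5 arrays), are quoted only beside it. The labels do not say how the vectors differ, from which species the PMCA4b DNA came, what promoter drove it, what share of cells took it up, or whether replicates were separate cultures or animals. The p-values therefore rest on the spread among these arrays, which may be technical.

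Levels are normalized log2 intensities, on which 1 unit is a doubling of signal. They can be compared between arrays for a given probe, not between genes. Knockout arrays detected 9757 to 9861 of the 25697 probes, and PMCA4b arrays 9496 to 9943. The median SD within a group was 0.118 in knockout and 0.119 in PMCA4b cells. The smooth muscle label was only partly borne out by its markers. Acta2, smooth muscle actin, was detected on all arrays, with group means from 13.88 to 15.96, but Myh11, Cnn1, Lmod1, Des and Myocd, which mark the contractile state, were detected on 0 of 24 arrays.

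At an adjusted p under 0.05, limma called 5317 of the 7675 genes (69.3%), 2758 of them higher with PMCA4b (35.9%) and 2559 lower (33.3%). The median difference over all genes was 0.03 and the median absolute difference 0.33 on the log2 scale, so most called differences were small. Of all genes, 277 (3.61%) were higher and 519 (6.76%) lower by at least 2-fold, and 75 (0.977%) were higher and 139 (1.81%) lower by at least 4-fold. For 4031 genes (52.5%) the 5 PMCA4b arrays and the 5 knockout arrays did not overlap. Because a call is this common, counts in the gene groups below are read against these shares. In the same fit, PMCA4b cells differed from the average of both vectors in 6051 genes (78.8%; 38.3% higher and 40.5% lower), and the vectors from the untreated knockout in 5708 (74.4%; 39.6% higher and 34.8% lower). These comparisons share arrays with the main one, so their values are given side by side and not as independent evidence. The deposited columns stand in 3 sets of 8 arrays, and the labels do not say what a set is. All 5 vector A arrays lie in set 3 and the 4 vector B arrays in sets 1 and 2. Knockout and PMCA4b arrays are spread alike over the 3 sets. A difference of vector A from other groups is therefore largely mixed with that layout.

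**Figure D1:**
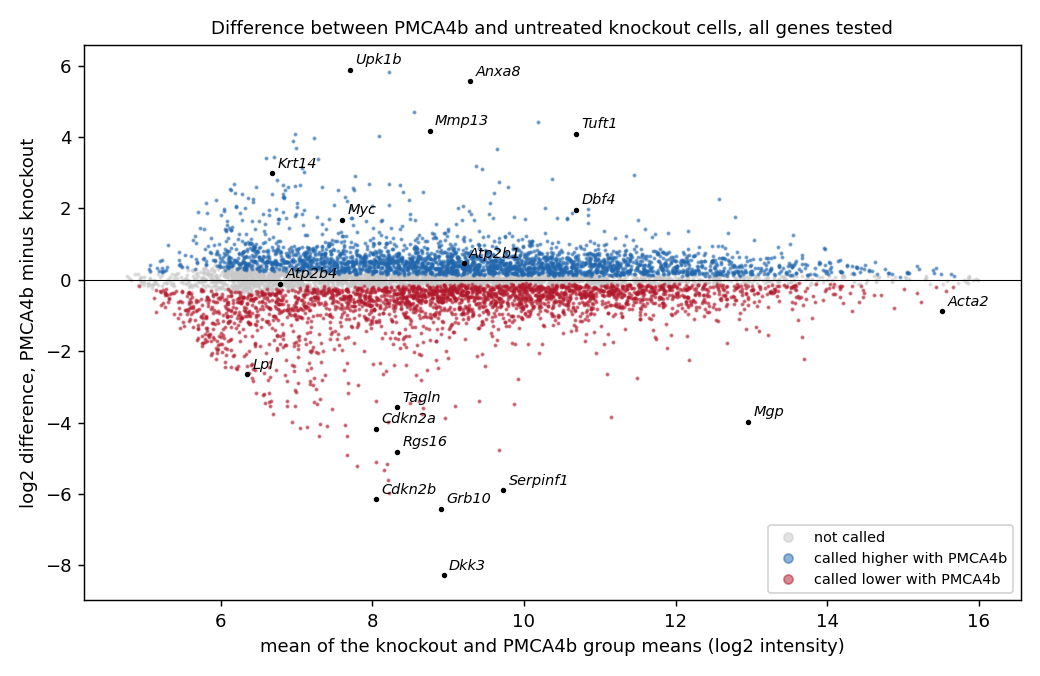
Difference between the PMCA4b and knockout group means (vertical axis, log2) against the mean of both groups (horizontal axis, log2 intensity) for each of the 7675 genes, blue where called higher, red where called lower, grey where not called. The lower side reaches further, to -8.27 for Dkk3, against 5.88 for Upk1b on the higher side, while Atp2b4 lies near 0.

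The targeted pump was examined first. Atp2b4 read 6.70, 6.96, 7.07, 6.84 and 6.63 on the 5 knockout arrays and 7.27, 6.86, 6.74, 6.88 and 5.88 on the 5 PMCA4b arrays. The groups overlapped, and 1 PMCA4b array fell below detection. The difference did not pass the test (log2 difference -0.11, SE 0.172, limma adjusted p = 0.572), and an exact two-sided permutation test over the 10 arrays gave p = 0.762. Wild-type arrays read 6.76, 6.79, 7.13, 6.80 and 6.55 and overlapped the knockout arrays. The probe's values therefore did not set wild type apart from knockout, a difference that was not tested. The sources do not place this probe against the deleted exons or the introduced DNA, so the Atp2b4 values check neither of them.

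The other calcium pumps and exchangers moved in both directions. Of 10 measured members of this list, 5 were called higher and 3 lower. Atp2b1, the widely expressed sister pump PMCA1, rose from 8.97 ± 0.134 (SD, n = 5) to 9.44 ± 0.103 (SD, n = 5), 1.38-fold (log2 difference 0.47, SE 0.0652, limma adjusted p = 9.15e-07). It read 8.85, 9.20, 8.92, 8.91 and 8.96 on the knockout arrays and 9.35, 9.34, 9.58, 9.50 and 9.43 on the PMCA4b arrays, without overlap. Atp2a3, the SERCA3 pump that loads calcium into the endoplasmic reticulum, was undetected on every knockout array and rose at least 3.88-fold, while its widespread relative Atp2a2 rose 1.36-fold. Mcu, the pore of the mitochondrial calcium uniporter, rose 1.85-fold, and Slc8b1, the mitochondrial sodium-calcium exchanger, 1.78-fold. Slc8a1, the sodium-calcium exchanger of the plasma membrane, fell at least 1.91-fold, with 3 of 5 PMCA4b arrays still above detection. Atp2a3 and Atp2b1 were also high in electroporated cells without PMCA4b. Atp2a3 read 8.46 with vector A, 7.80 with vector B and 4.96 in wild type, and Atp2b1 read 10.10 with vector A, 9.97 with vector B and 8.48 in wild type.

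Calcium entry and release genes were mixed, with 3 of 11 measured members higher and 3 lower. Cacna2d1, an auxiliary subunit of voltage-gated calcium channels, rose 3.04-fold, and the phospholipase Plcd1 fell 2.28-fold. Calcineurin, a phosphatase activated by calcium and calmodulin, dephosphorylates NFAT transcription factors, and PMCA4 is known to bind it. Of 20 measured genes of this pathway, 4 were higher and 9 lower. Rcan2, an inhibitor of calcineurin, read 10.18, 10.14, 10.35, 10.17 and 10.19 on the knockout arrays and 6.23, 6.61, 6.29, 5.99 and 5.95 on the PMCA4b arrays. It fell at least 12.7-fold (log2 difference -3.99, SE 0.0915, limma adjusted p = 3.87e-21), and 1 of 5 PMCA4b arrays detected it. It was 9.67 with vector A and 7.92 with vector B. Ppp3ca, the alpha catalytic subunit of calcineurin, fell 1.96-fold, and the beta subunit Ppp3cb rose 1.19-fold. Nfatc1, an NFAT factor, rose 2.98-fold, and read 9.15 with vector A, 9.74 with vector B and 8.42 in wild type. Camk2n1, an inhibitor of the calmodulin-dependent kinase CaMKII, rose at least 2.45-fold.

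Among the genes higher with PMCA4b, 98 were detected on all 5 PMCA4b arrays and on none of the 5 knockout arrays (1.28% of all genes tested). Upk1b, a tetraspanin known from the bladder lining, read 4.77, 4.76, 4.77, 4.75 and 4.80 on the knockout arrays, all undetected, and 10.60, 10.35, 10.69, 10.73 and 10.87 on the PMCA4b arrays. The groups lay far apart, a rise of at least 18.8-fold (limma adjusted p = 2.29e-25). Vector cells held it at a like or higher level, 11.87 with vector A and 10.70 with vector B, and PMCA4b cells read lower than the vector average (log2 difference -0.63, limma adjusted p = 1.83e-08).

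Anxa8, an annexin that binds membranes in the presence of calcium, read 6.49, 6.43, 6.45, 6.69 and 6.51 on the knockout arrays and 12.10, 12.06, 12.18, 12.05 and 11.98 on the PMCA4b arrays. It rose 47.3-fold (log2 difference 5.56, SE 0.0562, limma adjusted p = 4.33e-28) without overlap. Its level was 9.94 with vector A, 11.13 with vector B and 4.88 in wild type, and PMCA4b cells exceeded the vector average by 1.54 (limma adjusted p = 1.56e-18). Ptprd, a receptor-type tyrosine phosphatase, was undetected in knockout cells and rose at least 26.1-fold. Mmp13, the collagenase MMP13, read 6.15, 7.03, 6.89, 6.73 and 6.51 on the knockout arrays and 10.82, 10.73, 10.96, 10.89 and 10.82 on the PMCA4b arrays. With 4 of 5 knockout arrays detected, it rose at least 17.6-fold and exceeded the vector average by 2.73 (limma adjusted p = 1.77e-16). Its other probe gave a smaller log2 difference, 1.58.

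Tmem176b, a transmembrane protein, rose at least 22.1-fold, and its genomic neighbour Tmem176a, named after its values were seen, was detected on every array except those of the untreated knockout and rose at least 4.58-fold. Tuft1, the enamel protein tuftelin, rose 17.1-fold. Ffar4, a receptor for long-chain fatty acids, rose at least 6.07-fold, Hr, the corepressor hairless, at least 12.6-fold, and Tril, a partner of Toll-like receptor 4, at least 5.62-fold. The glutathione transferase Gsta1 rose at least 7.01-fold and the carboxylesterase Ces2g 12.6-fold.

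Ctsw, the protease cathepsin W, separated PMCA4b cells from all others. It read 8.83, 8.84, 8.81, 8.87 and 8.84 on the PMCA4b arrays, was detected on no other array, and rose at least 5.36-fold against the untreated knockout. Detection on all PMCA4b arrays and on no other of the 24 arrays was seen for 9 genes. Besides Ctsw these were Krt14, a keratin of basal epithelium (rise at least 3.38-fold), Pmaip1, the cell death protein Noxa (at least 2.99-fold), Pdgfb, the chain that forms PDGF-BB (at least 2.13-fold), and, named after their values were seen, As3mt (at least 1.38-fold), Cox6a2 (at least 1.76-fold), Cadm1 (at least 1.5-fold), Adam12 (at least 1.87-fold) and Kcnf1 (at least 1.68-fold). Cox6a2 is a muscle form of a cytochrome c oxidase subunit, Cadm1 a cell adhesion molecule, and Adam12 a metalloprotease.

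Loss of detection was more frequent than gain, since 194 genes were detected on all 5 knockout arrays and on none of the 5 PMCA4b arrays (2.53% of all genes tested). The lowest detected value was 6.36 to 6.57 on the PMCA4b arrays and 6.39 to 6.44 on the knockout arrays. Most PMCA4b arrays thus had a higher limit, and its part in this balance was not tested. Dkk3, a secreted glycoprotein related to the Dickkopf Wnt inhibitors, read 13.06, 13.00, 13.12, 13.06 and 13.15 on the knockout arrays and 4.89, 4.78, 4.81, 4.74 and 4.80 on the PMCA4b arrays, all undetected. This fall of at least 96.4-fold was the largest fitted difference of either direction (limma adjusted p = 1.97e-30). The log2 differences of its 3 probes ran from -8.27 to -3.42. The vector cells lay between, at 9.28 with vector A and 7.73 with vector B, and wild-type cells were at 13.57.

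Grb10, an imprinted adaptor that dampens insulin receptor signalling, read 12.11, 12.06, 12.01, 12.09 and 12.24 on the knockout arrays and 5.54, 5.69, 5.90, 5.66 and 5.69 on the PMCA4b arrays. It fell at least 49.1-fold. It was undetected on every array outside the untreated knockout, vectors and wild type included. In all, 29 genes were detected on all 5 untreated knockout arrays and on no other array. These 29 genes passed the detection filter through that group alone, which partly sets their fall. They included Rasgrf1, an imprinted exchange factor for Ras (fall at least 5.41-fold), Casp1, the inflammasome protease (at least 4.25-fold), the actins Acta1 (at least 5.71-fold) and Actg2 (at least 1.46-fold), the Wnt agonist Rspo2 (at least 1.37-fold) and the ephrin receptor Epha3 (at least 2.43-fold). Of the others, 5 genes best known from neurons or chromatin, named after their values were seen, included Tac1 (at least 3.82-fold), Nptx2 (at least 3.67-fold), Satb1 (at least 3.21-fold), Gap43 (at least 3.32-fold) and Slc17a6 (at least 4.23-fold).

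A different set of 54 genes was detected on every one of the 19 arrays without PMCA4b and on none of the 5 PMCA4b arrays. Dkk3 and Cdkn2b belonged to it, as did Mfap5, a microfibril protein (fall at least 26.5-fold), Thbs2, thrombospondin 2 (at least 23.2-fold), Pdgfra, a receptor of PDGF (at least 19.4-fold), and Cdkn2a. Serping1, the C1 inhibitor of complement (at least 4.44-fold), the lipid droplet protein Plin4 (at least 2.92-fold), lipoprotein lipase Lpl (at least 2.28-fold) and the guidance receptor Robo1 (at least 1.93-fold) were also among them. Cdo1, cysteine dioxygenase (at least 6.21-fold), and the ketoreductase Akr1c18 (at least 6.59-fold) were named after their values were seen. The opposite pattern, detection on every array except those of the untreated knockout, held for 6 genes. These were Tnfrsf21, a death receptor (rise at least 3.66-fold), Tmem176a, Cxadr, Ank3, Deptor and Sema6d, the last 5 of them named after their values were seen.

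Rgs16, a regulator that speeds the shut-off of G protein signalling, read 10.58, 10.81, 10.78, 10.71 and 10.76 on the knockout arrays and 5.87, 6.02, 5.64, 5.83 and 6.22 on the PMCA4b arrays. It fell at least 18.9-fold to below detection (log2 difference -4.81, SE 0.128, limma adjusted p = 6.2e-20). Its level was 8.43 with vector A, 7.06 with vector B and 6.31 in wild type. Serpinf1, the secreted inhibitor of vessel growth PEDF, read 12.79, 12.69, 12.64, 12.69 and 12.56 on the knockout arrays and 7.11, 7.25, 6.73, 6.25 and 6.58 on the PMCA4b arrays, a fall of at least 57.2-fold. Its vector levels, 9.40 and 8.62, lay between, and wild-type cells read 6.11. Fgf10, a growth factor of the FGF family, fell at least 20.1-fold and was undetected with either vector. Igfbp6, a binding protein for IGFs, fell at least 15-fold, the adhesion protein Adam23 at least 17.2-fold, and podoplanin, Pdpn, at least 12.4-fold.

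**Figure D2:**
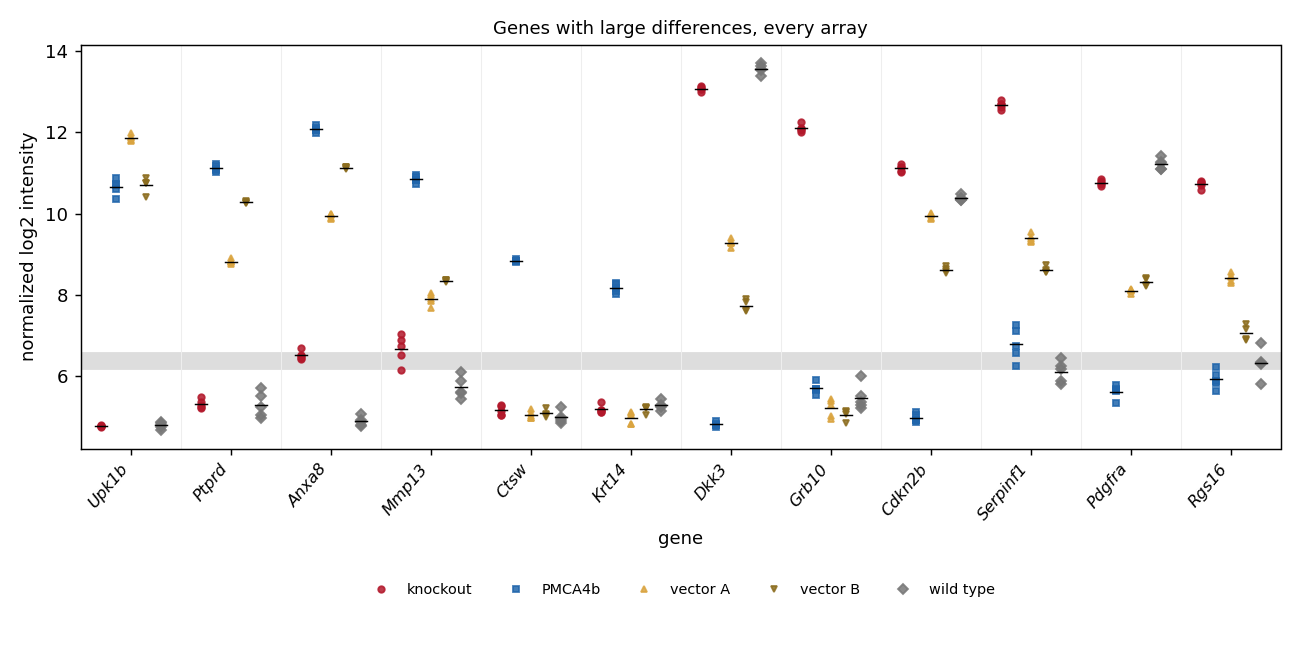
Normalized log2 intensity (vertical axis) on every array for 12 genes (horizontal axis), with a symbol for each of the 5 groups, a black dash at each group mean, and a grey band over the range of the lowest detected value on the 24 arrays. Upk1b and Ptprd are high in PMCA4b and vector cells, Ctsw and Krt14 stand above the band in PMCA4b cells alone, and Grb10 in untreated knockout cells alone.

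The cell cycle is driven by cyclins and their kinases and held back by kinase inhibitors. Cdkn2a encodes the inhibitors p16INK4a and p19ARF, and Cdkn2b, its neighbour in the gene order, encodes p15INK4b. Both p16 and p15 block the cyclin D kinases Cdk4 and Cdk6. Cdkn2b read 11.14, 11.03, 11.16, 11.22 and 11.04 on the knockout arrays and 5.10, 5.04, 4.87, 4.91 and 4.91 on the PMCA4b arrays. Every PMCA4b array was below detection, a fall of at least 24.8-fold (limma adjusted p = 2.68e-29). Cdkn2a read 10.25, 10.25, 10.02, 10.13 and 9.98 on the knockout arrays and 5.80, 5.77, 6.43, 6.15 and 5.65 on the PMCA4b arrays, again all undetected, a fall of at least 12.5-fold (limma adjusted p = 3.82e-20).

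In each other group both inhibitors were detected on all arrays. Cdkn2b read 9.95 with vector A, 8.62 with vector B and 10.38 in wild type, and Cdkn2a read 8.61 with vector A, 8.03 with vector B and 10.37 in wild type. Against the vector average Cdkn2b was lower by a log2 difference of -4.32 and Cdkn2a by -2.36, which are fitted values against an undetected group and no bounds (limma adjusted p = 7.36e-27 and 1.13e-16). The log2 differences of the 2 kept probes of Cdkn2a were -5.89 and -4.17. The nearby gene Mtap, an enzyme of methionine salvage, read 11.72, 11.76, 11.83, 11.73 and 11.58 on the knockout arrays and 11.23, 11.14, 11.20, 11.35 and 11.10 on the PMCA4b arrays. It fell 1.44-fold (limma adjusted p = 3.68e-09) and stayed detected on every array. Its vector levels, 10.36 and 10.18, were lower than those of PMCA4b cells.

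The other inhibitors moved in both directions. Of 21 measured inhibitors and checkpoint genes, 8 were called higher, 6 lower and 7 neither. Cdkn1a, the inhibitor p21, read 12.18, 11.99, 12.15, 12.08 and 12.07 on the knockout arrays and 13.10, 13.04, 13.02, 12.97 and 13.01 on the PMCA4b arrays, a rise of 1.91-fold (log2 difference 0.94, SE 0.0575, limma adjusted p = 7.54e-13) without overlap. Cdkn1b, the inhibitor p27, read 6.85, 6.86, 6.94, 6.86 and 7.04 on the knockout arrays and 6.13, 7.08, 6.28, 6.83 and 6.60 on the PMCA4b arrays, which overlap. It passed the limma test as lower (log2 difference -0.33, adjusted p = 0.0151), but not an exact two-sided permutation test (p = 0.119), and lost the call without PMCA4b replicate 1 (-0.21) or 3 (-0.25). Cdkn2c, p18INK4c, fell 1.48-fold. Cdkn1b and Cdkn2c were named after their values were seen. Pkmyt1, a kinase that holds Cdk1 inactive, rose at least 1.69-fold.

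p21 is a classic target of p53, and of 21 measured p53 pathway genes 13 were higher and 4 lower, with a median difference of 0.51. Pmaip1 read 5.79, 5.59, 5.73, 5.57 and 5.67 on the knockout arrays and 8.02, 7.86, 8.23, 7.99 and 7.88 on the PMCA4b arrays, detected only on the latter. Trp53inp1, a p53-induced stress protein, rose 2.38-fold, Mdm2, the ligase that degrades p53, 1.90-fold, and Bbc3, the cell death protein Puma, 1.58-fold. With the vectors in place of PMCA4b, 12 of the same genes were higher than in untreated knockout cells and 5 lower. Bbc3 was named after its values were seen.

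Among G1 cyclins, E2F factors and their kinases, 9 of 20 measured genes were higher and 6 lower. Cdk6, a partner of the D cyclins, read 5.42, 5.41, 6.23, 5.88 and 5.33 on the knockout arrays, all undetected, and 7.94, 7.79, 8.11, 8.01 and 8.02 on the PMCA4b arrays. It rose at least 2.95-fold (limma adjusted p = 1.42e-13), while vector A cells were undetected at 5.53 and vector B cells at 6.40 were detected on 3 of 4 arrays. Myc, a growth-promoting transcription factor, read 6.80, 6.80, 7.26, 6.48 and 6.43 on the knockout arrays and 8.54, 8.41, 8.72, 8.30 and 8.22 on the PMCA4b arrays. It rose 3.21-fold (limma adjusted p = 1.62e-11), and every other group lay below PMCA4b, at 6.91 with vector A, 6.78 with vector B and 6.91 in wild type.

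Mybl2, the S phase factor B-Myb, rose 3.18-fold, and cyclin E2, Ccne2, 1.85-fold. Cyclin D1 did not pass the test. Ccnd1 read 14.93, 15, 15.03, 15.07 and 15.03 on the knockout arrays and 15.02, 15.14, 15.07, 15 and 15.09 on the PMCA4b arrays, which overlap (log2 difference 0.05, SE 0.0446, limma adjusted p = 0.317). It was called higher with median scaling of the arrays (0.23) and with the mean of its 3 probes (0.13). Cyclin D2, Ccnd2, fell 1.71-fold and cyclin D3, Ccnd3, 1.34-fold, both named after their values were seen.

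**Figure D3:**
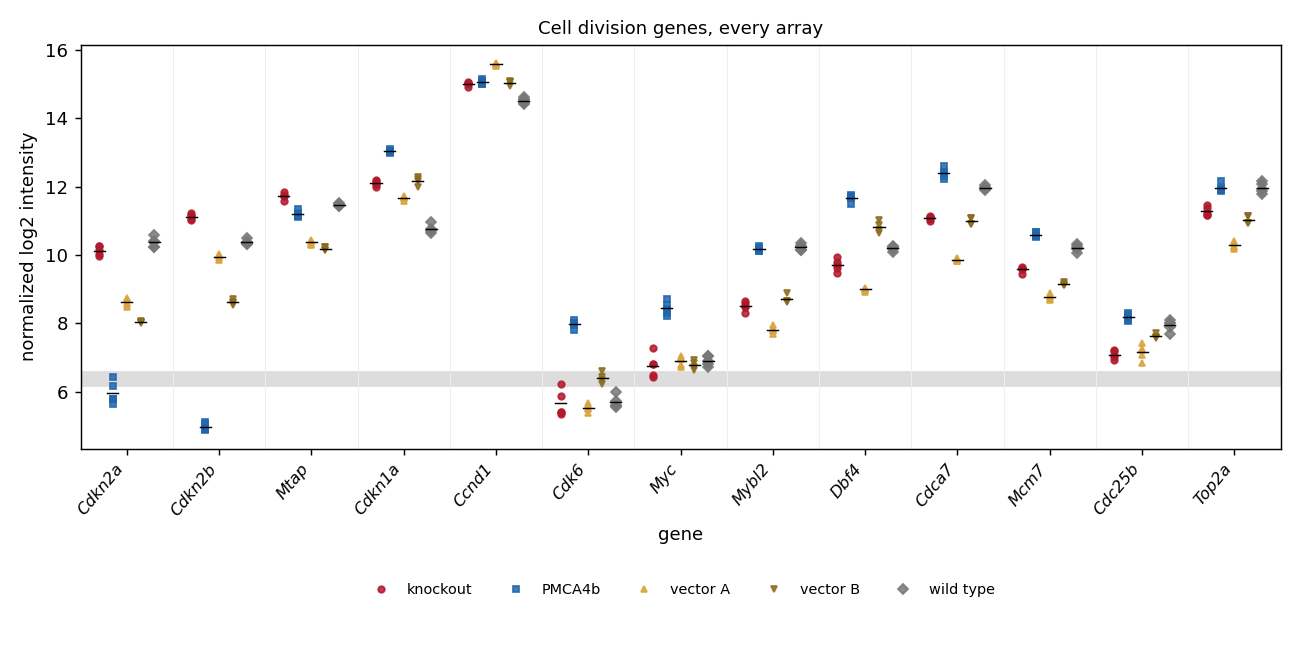
Normalized log2 intensity (vertical axis) of 13 cell division genes (horizontal axis) on every array, with a symbol for each group, a black dash at each group mean and the grey band of lowest detected values. Cdkn2a and Cdkn2b are undetected on the 5 PMCA4b arrays and detected on all 19 others, while Myc and Dbf4 are highest in PMCA4b cells.

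DNA replication genes were mostly higher with PMCA4b. Of 45 measured, 33 were called higher and 1 lower, against 35.9% and 33.3% of all genes, with a median difference of 0.45. The lower count ran from 0 to 3 when single arrays were left out. The mean over the 45 genes was 10.13 to 10.18 on the knockout arrays and 10.62 to 10.65 on the PMCA4b arrays, without overlap. Dbf4, the activating subunit of the Cdc7 kinase that fires origins, read 9.62, 9.47, 9.70, 9.93 and 9.80 on the knockout arrays and 11.49, 11.66, 11.69, 11.76 and 11.73 on the PMCA4b arrays. It rose 3.89-fold (log2 difference 1.96, SE 0.0757, limma adjusted p = 9.44e-17). Cdca7, a Myc- and E2F-regulated nuclear protein, rose 2.46-fold, Dut, which removes dUTP, 2.16-fold, and Cdc45, part of the replicative helicase, 2.08-fold.

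Mcm7, a subunit of the same helicase, read 9.65, 9.59, 9.59, 9.43 and 9.63 on the knockout arrays and 10.68, 10.56, 10.55, 10.66 and 10.53 on the PMCA4b arrays, a rise of 2.03-fold (log2 difference 1.02, SE 0.0530, limma adjusted p = 3.32e-14). Mcm6 rose 1.65-fold, and Pcna, the sliding clamp of DNA polymerases, 1.91-fold. Mcm2 was not called (log2 difference 0.09, limma adjusted p = 0.283). Mcm2, Mcm6, Mcm7 and Pcna were named after their values were seen. The vectors showed the opposite balance, since 5 of these genes were higher and 34 lower in vector cells than in untreated knockout cells. Against the vectors, 41 were higher with PMCA4b and 2 lower.

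E2F factors switch on many replication genes at the G1/S boundary. A search for TTTCCCGC or TTTGGCGC on either strand, in the 250 bases before each start in RefSeq promoters, found a match in 15.4% of the 39 measured replication genes with a promoter sequence, and in 2.79% of all tested genes with one and 1.51% of all promoters. A match is a description of the letters and does not show that a factor binds there. The stretches below, from assembly GRCm38.p6 and read 5′ to 3′ on the gene's strand, hold the matches (capitals, as written or as the reverse complement) of 3 replication genes called higher.
Cdca7 (chr2:72476119-72476178, plus strand): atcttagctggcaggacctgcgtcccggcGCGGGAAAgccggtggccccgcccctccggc
Mcm7 (chr5:138172019-138172078, minus strand): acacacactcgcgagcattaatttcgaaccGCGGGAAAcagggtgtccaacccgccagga
Mcm6 (chr1:128359736-128359825, minus strand): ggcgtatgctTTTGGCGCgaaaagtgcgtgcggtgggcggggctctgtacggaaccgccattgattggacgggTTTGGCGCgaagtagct

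Genes of G2 and mitosis were also mostly higher. Of 36 measured, 26 were higher and 3 lower, with a median difference of 0.31. Top2a, the topoisomerase that untangles chromosomes, read 11.16, 11.18, 11.47, 11.38 and 11.24 on the knockout arrays and 12.15, 11.95, 11.94, 11.89 and 11.88 on the PMCA4b arrays. The arrays did not overlap, and the rise was 1.60-fold (log2 difference 0.68, SE 0.0781, limma adjusted p = 5.11e-08). Cdc25b, a phosphatase that activates Cdk1, rose 2.13-fold, the kinase Melk 1.77-fold, the kinesin Kif22 1.57-fold and Cdk1 1.34-fold. Cyclin A2, Ccna2, rose from undetected in knockout cells to detection on 4 of 5 PMCA4b arrays, at least 1.16-fold. The members that fell included Cenpa, the centromeric histone (1.51-fold), and Cdc20, which activates the anaphase ligase (1.18-fold). Cdk1, Kif22, Cenpa and Cdc20 were named after their values were seen. In vector cells 34 of the 36 were lower than in untreated knockout cells and 1 higher.

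Many mitotic genes carry a CHR element, TTTGAA, near their start. This word occurred within the 250 bases before the start, on either strand, in 38.7% of 31 measured mitotic genes with a promoter, in 12.6% of all tested genes and in 18.3% of all promoters. The last bases before the start of 3 such genes called higher are shown from GRCm38.p6 with the word, or its reverse complement, in capitals.
Top2a (chr11:99024190-99024249, minus strand): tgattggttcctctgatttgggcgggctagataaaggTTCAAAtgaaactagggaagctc
Kif22 (chr7:127042421-127042480, minus strand): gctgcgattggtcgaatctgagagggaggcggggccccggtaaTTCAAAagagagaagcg
Cdk1 (chr10:69352913-69352992, minus strand): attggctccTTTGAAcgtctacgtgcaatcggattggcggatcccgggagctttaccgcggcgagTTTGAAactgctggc

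Homologous recombination and Fanconi genes, which repair broken or crosslinked DNA, were higher in 14 of 17 and lower in 0. H2ax, the histone variant phosphorylated at DNA breaks, rose 2.11-fold, Brca2 1.65-fold, Fancl 1.64-fold and Rad54b 1.56-fold. Nucleotide synthesis genes were higher in 16 of 28 and lower in 3, among them Atic, which closes the purine ring (1.96-fold), Adss (1.77-fold) and thymidine kinase Tk1 (1.69-fold).

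Ribosome biogenesis was the gene group with the highest share of higher calls among the lists with at least 15 measured genes. It covers the nucleolar factors that transcribe, cut and fold ribosomal RNA. Of 33 measured genes, 31 were higher and 0 lower, with a median difference of 0.54. Their mean was 10.44 to 10.49 on the knockout arrays and 10.97 to 11.05 on the PMCA4b arrays. Polr1e, a subunit of RNA polymerase I, read 9.73, 9.59, 9.71, 9.48 and 9.59 on the knockout arrays and 10.95, 10.94, 10.94, 10.94 and 10.96 on the PMCA4b arrays. It rose 2.51-fold (log2 difference 1.33, SE 0.0572, limma adjusted p = 8.52e-16) without overlap.

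The processing factors Rrp1b, Gnl3 (nucleostemin) and Pes1 rose 1.96-fold, 1.89-fold and 1.85-fold. Against the vectors, 28 of the 33 were higher with PMCA4b, and between vectors and untreated knockout 8 were higher and 15 lower. Pes1 was an exception, at 10.30 with PMCA4b against 10.63 with vector A and 10.38 with vector B.

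The other parts of the protein-making machinery moved the same way by less. Cytosolic ribosomal proteins were higher in 31 of 51 and lower in 2, with a median of 0.19. Rplp0 rose 1.49-fold and Rpl4 fell 1.56-fold; ribosomal protein genes have many near-identical pseudogenes, so single probes are uncertain. The tRNA synthetases, which load amino acids onto tRNA, were higher in 12 of 18 and lower in 2, and the list of amino acid synthesis and the integrated stress response in 12 of 21 against 5. Shmt2, the mitochondrial enzyme that takes a carbon unit from serine, rose 2.14-fold, and Trib3, a stress-induced pseudokinase, at least 1.48-fold.

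Oxidative phosphorylation genes were higher in 30 of 62 and lower in 4 (9 without PMCA4b replicate 5), with Uqcrc1 of complex III up 1.59-fold and Ndufb6 of complex I 1.53-fold. Proteasome genes were higher in 11 of 30 and lower in 6.

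**Figure D4:**
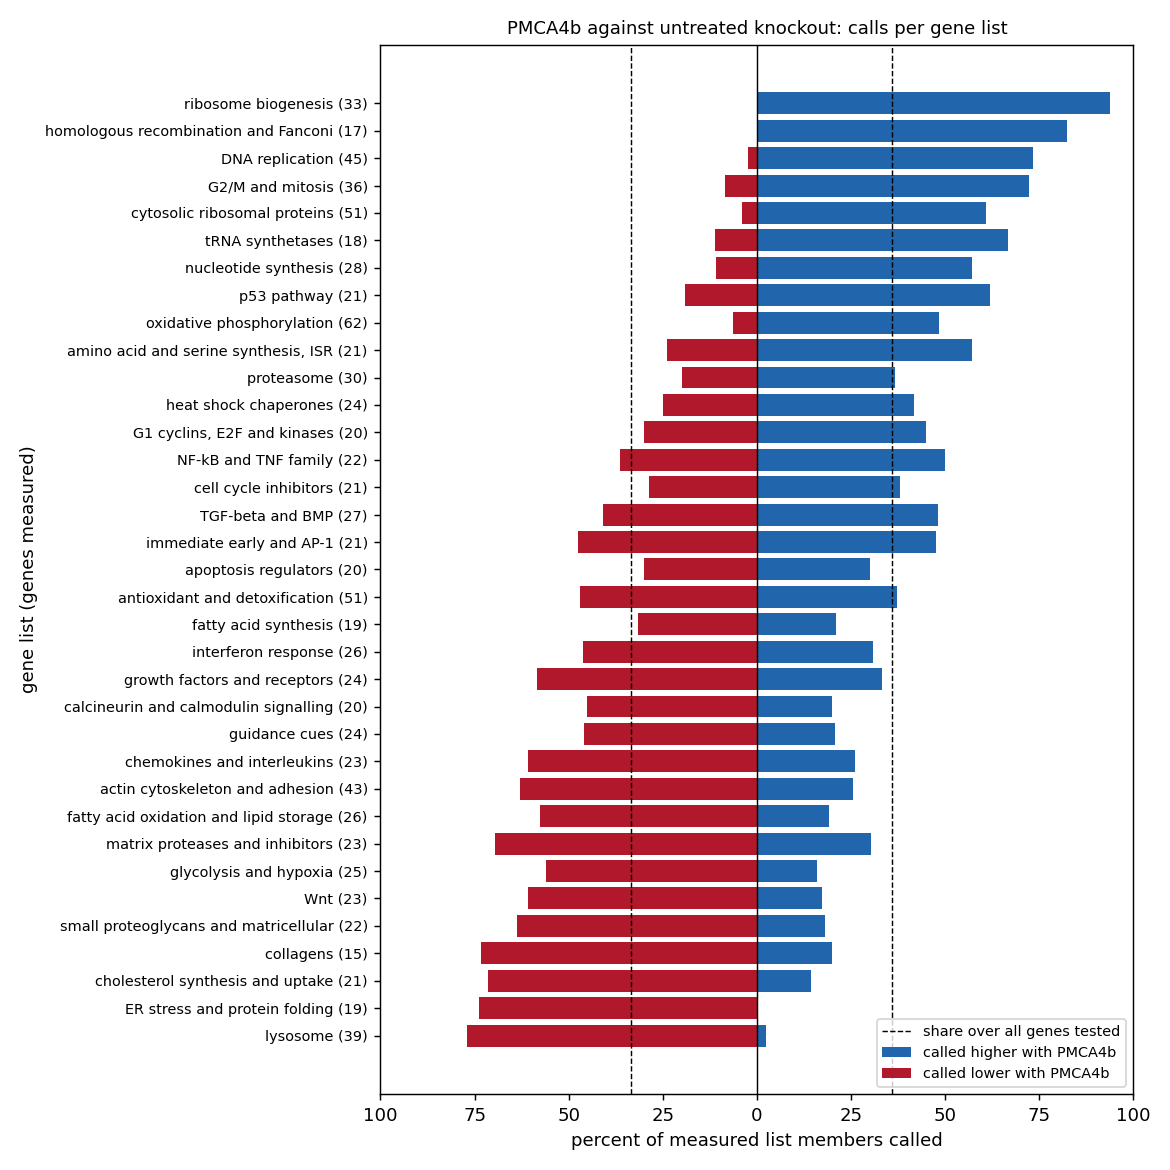
Share of the measured genes of each list (vertical axis, with the number measured, lists of at least 15) called higher (blue, to the right) or lower (red, to the left) with PMCA4b, in percent. Dashed lines mark the shares over all genes tested, 35.9% higher and 33.3% lower. Ribosome biogenesis stands at the top and lysosome at the bottom.

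Most lysosomal genes fell. Lysosomes digest proteins, lipids and sugars with acid hydrolases, kept acid by a proton pump. Of 39 measured genes, 30 were lower and 1 higher, with a median difference of -0.48. Their mean was 10.15 to 10.20 on the knockout arrays and 9.65 to 9.72 on the PMCA4b arrays, against 10.65 to 10.72 with vector A and 10.40 to 10.44 with vector B. Between vectors and untreated knockout 30 were higher and 9 lower, and PMCA4b cells had the lowest mean of all 5 groups.

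Lipa, the acid lipase that frees cholesterol from its esters, read 9.47, 9.41, 9.62, 9.58 and 9.64 on the knockout arrays and 7.46, 7.86, 7.92, 7.72 and 8.03 on the PMCA4b arrays. It fell 3.36-fold (log2 difference -1.75, SE 0.0972, limma adjusted p = 1.18e-13). Manba, a mannosidase, fell 2.19-fold, Cln3, a lysosomal membrane protein, 2.05-fold, and the protease legumain, Lgmn, 2.03-fold. Smpd1, acid sphingomyelinase, fell 2.00-fold. The member called higher was Gusb, beta-glucuronidase (1.21-fold), and the protease cathepsin D, Ctsd, detected on 3 of 5 arrays in each group, averaged 6.61 in knockout and 6.61 in PMCA4b cells (SE of the difference 0.125, limma adjusted p = 0.995). Smpd1, Gusb, Ctsd and Naglu were named after their values were seen.

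Many lysosomal promoters carry the CLEAR element, with the core GTCACGTG, which the factor TFEB recognises. It occurred in 29.4% of 34 measured lysosomal genes with a promoter, against 4.02% of all tested genes and 2.11% of all promoters, on either strand within 250 bases before the start. The 10 lysosomal genes with it included called and uncalled members. Of the 4 shown from GRCm38.p6 with the core or its reverse complement in capitals (overlapping in Cln3), Lgmn, Cln3 and Naglu (1.40-fold, with overlapping arrays) fell and Ctsd was not called.
Lgmn (chr12:102439113-102439172, minus strand): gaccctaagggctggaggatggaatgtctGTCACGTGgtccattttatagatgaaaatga
Cln3 (chr7:126583327-126583386, minus strand): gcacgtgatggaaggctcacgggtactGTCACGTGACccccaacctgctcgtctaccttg
Naglu (chr11:101069989-101070048, plus strand): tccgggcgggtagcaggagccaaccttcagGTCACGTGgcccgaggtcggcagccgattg
Ctsd (chr7:142387898-142387957, minus strand): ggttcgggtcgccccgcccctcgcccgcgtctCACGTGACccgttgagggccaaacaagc

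The endoplasmic reticulum list behaved likewise. Of 19 measured chaperones and stress genes, 14 were lower and 0 higher, median -0.46. Dnajb9, a cochaperone of the unfolded protein response, fell 2.76-fold, the disulfide isomerases Pdia4 and Pdia6 2.49-fold and 1.79-fold, and Sel1l, an adaptor of protein degradation, 2.27-fold. Hspa5, the main chaperone BiP, was not called (log2 difference -0.14, limma adjusted p = 0.34; named after its values were seen). Calr, calreticulin, a chaperone that also stores calcium, fell 1.73-fold. It read 11.31 with vector A, 11.65 with vector B and 12.23 in wild type.

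Cholesterol synthesis and uptake genes were lower in 15 of 21 and higher in 3, with a median of -0.56. Fdps, farnesyl diphosphate synthase, read 13.22, 13.23, 13.07, 13.10 and 13.00 on the knockout arrays and 12.07, 12.06, 12.07, 11.90 and 11.81 on the PMCA4b arrays. It fell 2.21-fold (log2 difference -1.14, SE 0.0646, limma adjusted p = 1.57e-13) without overlap. Mvd fell 2.25-fold, Msmo1 2.18-fold and the synthase Hmgcs1, named after its values were seen, 1.55-fold. Cyp51, a demethylase of the same pathway, rose 2.67-fold. In vector cells 18 of the 21 were higher than in untreated knockout cells, and against the average of both vectors 21 were lower with PMCA4b. That need not hold for each vector. Cyp51 read 12.15 to 12.43 with PMCA4b, above vector A at 11.56 to 11.71 and below vector B at 13.25 to 13.48.

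Fatty acid oxidation and lipid storage genes were lower in 15 of 26 and higher in 5. Lpl, which releases fatty acids from lipoproteins, read 7.92, 7.84, 7.68, 7.76 and 7.17 on the knockout arrays and 5.04, 4.77, 4.96, 5.13 and 5.24 on the PMCA4b arrays, all undetected. It fell at least 2.28-fold (limma adjusted p = 1.07e-16) and was far higher in vector cells, 11.20 and 12.39. Plin4 read 10.11 and 9.58 with the vectors, and Pparg, the adipogenic nuclear receptor that fell at least 3.59-fold, 11.02 and 10.35. The fatty acid carrier Fabp3 fell at least 2.29-fold. Glycolysis and hypoxia genes were lower in 14 of 25, among them the peptide hormone Adm (3.18-fold) and Pdk1, which restrains pyruvate oxidation (2.12-fold), and higher in 4, with Ddit4 up 2.08-fold.

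Contractile genes were lower. Of 12 measured members of 25 listed, 9 were lower and 2 higher. Acta2 read 15.95, 16.02, 15.94, 15.95 and 15.94 on the knockout arrays and 15.21, 15.05, 14.94, 15.17 and 15.02 on the PMCA4b arrays, without overlap. It fell 1.84-fold (log2 difference -0.88, SE 0.0515, limma adjusted p = 2.75e-13); the knockout values lie at or near the top of the scale, 16.02, so this fold may be too small. Tagln, the actin-binding protein SM22, read 10.12, 10.32, 10.01, 10.15 and 9.93 on the knockout arrays and 6.73, 6.52, 6.70, 6.60 and 6.14 on the PMCA4b arrays. It fell at least 11.3-fold (limma adjusted p = 4.79e-17), and 4 of the 5 PMCA4b arrays still detected it.

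Mustn1, a small musculoskeletal protein, fell 12-fold, smoothelin, Smtn, 1.46-fold, and beta-tropomyosin, Tpm2, 2.35-fold, the last on its brightest probe, while its other probe gave a log2 difference of 0.17. Vcl, vinculin, and Tpm1 rose 1.20-fold and 1.11-fold with overlapping arrays, and Tpm1 lost its call without knockout replicate 3 (0.12). Smtn, Vcl, Tpm1 and Cnn2 were named after their values were seen. Acta1, the actin of skeletal muscle, read 8.54, 9.42, 8.88, 8.95 and 9.21 on the knockout arrays and 5.40, 5.43, 5.55, 5.86 and 5.42 on the PMCA4b arrays, all of the latter undetected. The summed signal of the contractile list, on the linear scale, was 100796 to 105350 on the knockout arrays and 67634 to 73822 on the PMCA4b arrays. Vector arrays were lower still, 45156 to 47480 and 47924 to 50073, and wild-type arrays, at 52117 to 58230, also lay below the PMCA4b arrays. Acta2 alone made 87.7% of the drop from knockout to PMCA4b cells. Without it the sum was 38068 to 41382 and 32354 to 38549, which overlap. Against the vectors 8 of the 12 were higher with PMCA4b and 0 lower. Tagln, for example, was undetected in every vector culture array.

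Serum response factor controls many contractile genes through the CArG box. That motif occurred in 20.0% of the 10 measured contractile genes with a promoter sequence (Vcl and Cnn2), against 1.44% of all tested genes and 1.62% of all promoters, within 250 bases before the start. Shown from GRCm38.p6 with the motif in capitals are Acta1, which is outside that list, and Cnn2, an actin-binding calponin that fell 1.46-fold with overlapping arrays.
Acta1 (chr8:123894816-123894875, minus strand): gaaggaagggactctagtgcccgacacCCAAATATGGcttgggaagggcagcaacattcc
Cnn2 (chr10:79988515-79988574, plus strand): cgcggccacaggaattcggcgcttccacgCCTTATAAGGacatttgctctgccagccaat

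The wider actin cytoskeleton and adhesion list was lower in 27 of 43 and higher in 11. Gsn, the actin-severing protein gelsolin, fell 10.6-fold, profilin 2, Pfn2, 3.47-fold, and cofilin 2, Cfl2, 2.27-fold. Ezr, ezrin, which links actin to the membrane, rose 4.16-fold. Among heat shock chaperones, where 10 of 24 were higher and 6 lower, the small muscle chaperones Hspb7 and Cryab fell 10.6-fold and 4.71-fold and Hspb2, a neighbour of Cryab, rose 2.59-fold.

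The extracellular matrix lists were mostly lower. Collagens were lower in 11 of 15 and higher in 3, with Col4a2 of basement membranes down 2.23-fold, Col16a1 2.06-fold and the fibrillar chain Col1a2 1.95-fold. Small proteoglycans and matricellular proteins were lower in 14 of 22 and higher in 4. Mgp, matrix Gla protein, an inhibitor of vascular calcification, read 14.88, 15.09, 15.14, 14.89 and 14.73 on the knockout arrays and 10.86, 11.06, 11.05, 10.94 and 10.92 on the PMCA4b arrays. It fell 15.8-fold (log2 difference -3.98, SE 0.0635, limma adjusted p = 4.62e-24), and stood at 14.75 with vector A, 14.61 with vector B and 15.57 in wild type. Tnc, tenascin C, fell at least 7.20-fold.

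Matrix proteases and their inhibitors were lower in 16 of 23 and higher in 7. Besides Mmp13, Mmp3, stromelysin 1, rose 8.65-fold, but was higher still with the vectors, 13.84 and 13.24. Adamts1, which cleaves proteoglycans, fell at least 6.68-fold.

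**Figure D5:**
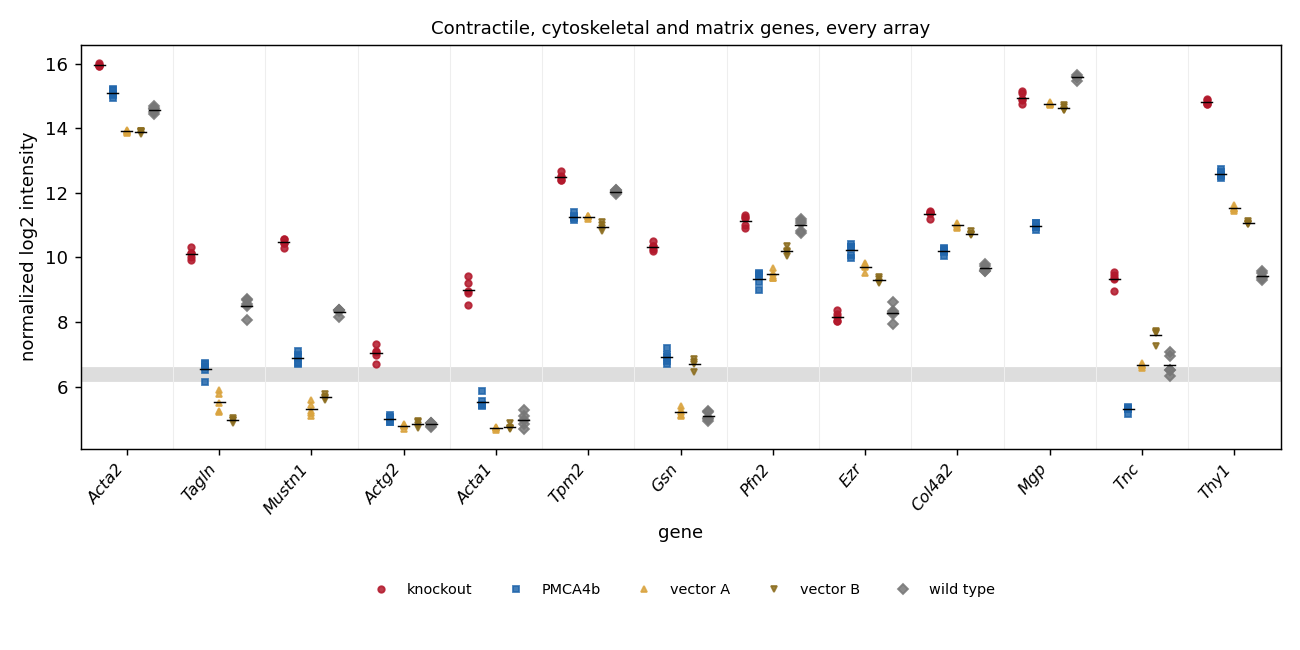
Normalized log2 intensity (vertical axis) of 13 contractile, cytoskeletal and matrix genes (horizontal axis) on every array, with a symbol for each group, a black dash at each group mean and the grey band of lowest detected values. Tagln and Mustn1 fall from the knockout through PMCA4b to the vectors, while Mgp is low on the PMCA4b arrays alone.

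Growth factors and receptors were lower in 14 of 24 and higher in 8. The cells had been stimulated with PDGF-BB, which signals through both PDGF receptors. Pdgfra read 10.81, 10.73, 10.75, 10.67 and 10.85 on the knockout arrays and 5.63, 5.33, 5.67, 5.66 and 5.77 on the PMCA4b arrays, all undetected. Pdgfrb, named after its values were seen, read 9.34, 9.41, 9.39, 9.30 and 9.77 on the knockout arrays and 7.74, 7.96, 8.13, 8.10 and 8.37 on the PMCA4b arrays. It fell 2.61-fold (log2 difference -1.38, SE 0.114, limma adjusted p = 1.72e-10). The ligand gene Pdgfb was undetected outside PMCA4b cells, where it read 7.53, 7.66, 7.55, 7.66 and 7.13.

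Egfr, the epidermal growth factor receptor, also named after its values were seen, rose 3.57-fold. Esm1, the secreted proteoglycan endocan, fell 27.1-fold. In the insulin-like growth factor axis the binding protein Igfbp3 fell at least 3.97-fold and the receptor substrate Irs2 rose at least 3.89-fold. Wnt pathway genes were lower in 14 of 23 and higher in 4; the Wnt-binding protein Sfrp1 fell 11.0-fold and the Wnt-induced matricellular gene Ccn4 rose 3.69-fold. For TGF-beta and BMP genes the calls were split, 13 higher and 11 lower of 27, with the activin antagonist Fst down 3.55-fold, the coreceptor Tgfbr3 down 3.30-fold and the receptor Tgfbr1 up 2.03-fold.

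Notch genes were called higher in 4 and lower in 3 of 10. Nrarp, a Notch-induced feedback inhibitor, rose at least 4.66-fold and the target Hes1 1.88-fold, while Rbpj, the DNA-binding partner of Notch, fell at least 3.37-fold to below detection, as with both vectors. Guidance cues were lower in 11 of 24, with the semaphorin Sema3f down 11.1-fold, and higher in 5.

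Immediate early genes, which serum induces within minutes, were split, 10 higher and 10 lower of 21. For 7 of the 21 the dimmer group had undetected arrays. Egr1 rose 1.37-fold and Jun fell 1.78-fold, both named after their values were seen. Dusp1, a phosphatase that switches off MAP kinases, read 11.63, 11.77, 11.66, 11.59 and 11.67 on the knockout arrays and 10.03, 9.85, 9.98, 9.98 and 9.96 on the PMCA4b arrays. It fell 3.27-fold (log2 difference -1.71, SE 0.0459, limma adjusted p = 7.6e-20), and vector cells lay above both groups at 12.88 and 12.57. Ier3, another early response gene, fell 3.13-fold, and Ccn1, a secreted matricellular target of serum response, 3.46-fold. Fos was undetected in both groups, and was detected with both vectors at 9.61 and 9.45. It still passed the test as lower with PMCA4b, a call that describes only values below detection.

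Chemokines, interleukins and their receptors were lower in 14 of 23 and higher in 6. Csf1, the macrophage growth factor, fell 4.12-fold, and Il6ra, a receptor chain for interleukin 6, 2.73-fold. Cxcl1, a neutrophil attractant, rose at least 5.36-fold, below its vector levels of 10.83 and 12.14. Interferon response genes were lower in 12 of 26 and higher in 8, with Ifit3 down 2.98-fold, Isg15 at least 2.45-fold and Gbp2 2.87-fold. The peptide transporter Tap2 fell 3.26-fold. Complement genes were lower in 5 of 8, with C1s1 down at least 1.41-fold. The NF-kB and TNF family was split, 11 higher and 8 lower of 22, and the adhesion molecule Vcam1 rose 2.35-fold.

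Antioxidant and detoxification genes were also split, 19 higher and 24 lower of 51. Hmox1, heme oxygenase 1, read 9.68, 9.89, 10.04, 9.67 and 10.25 on the knockout arrays and 7.05, 6.95, 7.52, 7.49 and 7.23 on the PMCA4b arrays. It fell 6.32-fold (log2 difference -2.66, SE 0.111, limma adjusted p = 4.22e-16) without overlap. The glutathione transferases diverged, with Gsta2 up at least 3.33-fold beside Gsta1, and Gstt3 down at least 4.79-fold. Among apoptosis regulators, 6 of 20 were higher and 6 lower, and the survival gene Bcl2 rose 2.04-fold. Hox genes were called higher in 3 and lower in 5 of 11, with Hoxa5 down 2.85-fold. Imprinted genes gave 2 higher and 6 lower of 10, laminins and integrins 6 and 4 of 14, and fatty acid synthesis 4 and 6 of 19.

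Markers of other cell types differed too, and fewer cells of a type and less RNA per cell cannot be told apart in these bulk samples. Of 7 measured epithelial markers, 5 were higher and 0 lower. Krt14 was detected in PMCA4b cells alone and passed the detection filter only through the group where it is high. This count and the sum below are therefore partly set by that filter. Krt14 read 5.15, 5.11, 5.10, 5.35 and 5.16 on the knockout arrays, all undetected, and 8.10, 8.28, 8.02, 8.17 and 8.28 on the PMCA4b arrays. The desmosomal plaque proteins Pkp1 and Pkp2 rose at least 6.68-fold and at least 1.92-fold, and the keratin Krt19 at least 2.45-fold. The summed signal of the 7 markers was 441 to 549 on the knockout arrays, 1532 to 1621 on the PMCA4b arrays, and 501 to 551 with vector A and 616 to 661 with vector B. Krt19 was also detected on all 5 vector A and all 4 vector B arrays, at 7.22 to 7.58, against 7.55 to 8.06 with PMCA4b. Pkp2 was detected on 0 vector arrays, and Pkp1 on 0 of vector A and 2 of vector B. Krt5, the usual partner of Krt14, and Krt15, Krt18, Jup, Ocln, Esrp1 and Grhl2 were detected on 0 of 24 arrays. Cdh1 was detected on no array of either group compared, but on all 5 vector A and all 4 vector B arrays.

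Fibroblast markers gave 2 higher and 4 lower calls of 9 measured, and their summed signal was 60551 to 67532 on the knockout arrays and 39311 to 44054 on the PMCA4b arrays. Thy1, a surface glycoprotein, read 14.75, 14.88, 14.73, 14.78 and 14.91 on the knockout arrays and 12.65, 12.47, 12.55, 12.52 and 12.74 on the PMCA4b arrays. It fell 4.67-fold (log2 difference -2.22, SE 0.0595, limma adjusted p = 7e-20). It made 92.1% of the drop in the sum, and without it the sum was 33308 to 40038 and 33455 to 37189, which overlap. Dcn, decorin, fell 2.73-fold, and Cd34 and Dpt (dermatopontin, named after its values were seen) rose 3.27-fold and 1.78-fold. Endothelial markers were measured for 4 of 20 listed genes, with Egfl7 up 4.28-fold and the receptor Flt1 up 3.35-fold. Their summed signal was 1720 to 1855 in knockout and 3843 to 4422 in PMCA4b cells. Flt1, at 9.51 to 9.64 on the knockout arrays and 11.22 to 11.42 on the PMCA4b arrays, made most of that rise. The defining endothelial genes Pecam1, Cdh5, Kdr, Tie1 and Vwf were detected on 0 of 24 arrays.

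Leukocyte markers were measured for 2 of 17 genes, with a summed signal of 214 to 256 in knockout and 458 to 492 in PMCA4b cells. Ptprc, Itgam and Adgre1 were detected on 0 arrays, and of both measured markers the coreceptor Cd14 rose 3.34-fold and the lysozyme Lyz1, detected on 5 knockout and 3 PMCA4b arrays, fell (log2 difference -0.37, limma adjusted p = 0.00856). Both measured adipocyte markers, Plin4 and Pparg, were lower, with a summed signal of 540 to 644 in knockout and 101 to 141 in PMCA4b cells, and Adipoq, Fabp4 and Plin1 were detected on 0 of 24 arrays. Whether other cell types had a part in any difference was not tested.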

How the data were processed

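RNA of each sample was labelled with biotin and hybridised to an Illumina bead array, per the labels' protocols. The deposited intensities are background-subtracted, for each probe and array, with values below 0, and stand beside deposited detection p-values. A second deposited table holds the authors' log2 values, in the same rank order per array as the intensities and with shared quantiles. The software behind both tables is not stated in the labels or headers.

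Intensities were corrected and quantile-normalized with neqc of limma 3.58.1 (R 4.3.3), with the background inferred from the detection p-values and an offset of 16. The filter kept 11139 of 25697 probes, those with detection p under 0.01 on 4 or more arrays. Of these, 10504 had 1 gene name in the platform annotation, updated through a RefSeq gene table of assembly GRCm38.p6. The filter counted detection over all 24 arrays, so counts can include genes undetected in both compared groups, such as Fos. A gene detected in a single group passed through that group alone, as Krt14 did through PMCA4b cells and Actg2 and Grb10 through the untreated knockout. The probe with the highest mean stood for its gene, which gave 7675 genes; for 15 of them called probes moved in opposite directions. A linear model with 5 group means was fitted to all 24 arrays (19 residual degrees of freedom), with moderated two-sided tests and Benjamini-Hochberg adjustment over all genes, called at an adjusted p under 0.05. The number of arrays limits the precision. An exact permutation test of 5 against 5 arrays cannot give a p below 0.00794.

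Where a dimmer group had undetected arrays, the fold is a minimum (at least N-fold). The dim group's arrays were then raised to the lowest detected value of that array where the probe was dimmer. On the knockout and PMCA4b arrays this value lay between 6.36 and 6.57. List medians use fitted values. With undetected genes at their bound (0 where no bound exists), the median became -0.45 for cholesterol synthesis and 0.48 for the p53 pathway. The other printed medians moved by less than these. Medians of some lists not printed above moved further. They went from -0.69 to 0 for chemokines and interleukins, -0.40 to -0.05 for Wnt and -0.87 to -0.25 for complement. For immediate early genes the move was from -0.19 to 0, and for the NF-kB and TNF family from 0.28 to 0.03. Counts of such lists include many genes with undetected arrays in the dimmer group, 13 of 23 among chemokines and interleukins. The members and lists were chosen with earlier results of these data known. Named genes are the 12 largest non-overlapping called differences in each direction, up to 4 called members per list with the largest difference, and a short set of genes known from the study. Whether replicate numbers pair the samples is not stated, and the fit did not pair them. Deviations from the group means correlated between 0.04 and 0.46 for same-numbered arrays. For replicates 1, 4 and 5 this was above the highest correlation with another number (0.46 against -0.07 for replicate 5), and for replicates 2 and 3 below it. Same-numbered arrays of both groups also lie in the same set of deposited columns. On simulated arrays of 7675 genes, the fit called 86% of 100 genes changed by 0.5 and 100% of 100 genes changed by 1 on the log2 scale. Only these genes were changed there, with independent noise, whereas 69.3% of the real genes were called. The simulated rates therefore need not hold for these data. Motif searches and figures used Python 3.11.15, pandas 2.3.3 and matplotlib 3.10.9, and promoters came from RefSeq. Other settings tried are given in the closing section.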

Additional observations from a re-analysis of the deposited data

Results flagged for a closer look

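For each gene named in the text, the 5 knockout arrays and the 5 PMCA4b arrays were searched for a single array far from the other 4. An array was taken as far when its gap to the nearest other array exceeded 0.71 of the group's range (Dixon's criterion). Of 418 groups of 5 arrays, 24 held such an array, and chance gives about 1 in 20. By replicate the numbers were 4, 2, 6, 2 and 3 for knockout replicates 1 to 5 and 2, 1, 1, 2 and 1 for PMCA4b replicates 1 to 5. Values are log2 intensities, each with the nearest other array. Arrays below the rest of the knockout group were As3mt at 4.63 (replicate 3, next 4.74), Col4a2 at 11.18 (replicate 1, next 11.36), Fst at 10.33 (replicate 1, next 10.55), Manba at 8.22 (replicate 5, next 8.50), Mcm7 at 9.43 (replicate 4, next 9.59) and Pdgfb at 4.92 (replicate 3, next 5.24). Further such below the rest of the knockout group included Rpl4 at 10.94 (replicate 3, next 11.05). Arrays above the rest of the knockout group were Acta2 at 16.02 (replicate 2, next 15.95), Akr1c18 at 9.31 (replicate 3, next 9.19), Bcl2 at 7.37 (replicate 3, next 6.88), Cdk1 at 11.51 (replicate 1, next 11.28), Cryab at 13.54 (replicate 5, next 13.27) and Hmgcs1 at 13.99 (replicate 1, next 13.85). Further such above the rest of the knockout group were Krt14 at 5.35 (replicate 4, next 5.16), Nfatc1 at 8.27 (replicate 2, next 8.03), Pdgfrb at 9.77 (replicate 5, next 9.41) and Rcan2 at 10.35 (replicate 3, next 10.19). Arrays below the rest of the PMCA4b group were Hspb7 at 7.48 (replicate 4, next 7.73), Isg15 at 5.49 (replicate 4, next 6.32), Pdgfb at 7.13 (replicate 5, next 7.53) and Tnc at 5.15 (replicate 2, next 5.30). Arrays above the rest of the PMCA4b group were Cadm1 at 7.46 (replicate 3, next 6.96), Egfl7 at 9.36 (replicate 1, next 9.26) and Top2a at 12.15 (replicate 1, next 11.95).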

How the results depend on the processing

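The count of genes called between PMCA4b and knockout stayed within 1.5 times its main value, 2758 higher and 2559 lower, with the authors' table (2756 and 2559), median scaling (2871 and 2350), the other background, filter, probe and variance settings, and leaving out each array in turn (2664 to 2700 higher, 2490 to 2539 lower). The exceptions were the fit within the third set of 8 deposited columns, with 1 knockout and 1 PMCA4b array, where 1636 were higher, and the added demand of a 1.5-fold difference, with 905 higher and 1151 lower. With the replicate number as a block, 2807 were higher and 2605 lower, though whether the numbers pair the samples is not stated. Of the 100 counts for gene lists with at least 5 measured genes, 65 moved by more than 1.5 times under that demand, 19, 19 and 30 within column sets 1, 2 and 3, 8 at an adjusted p under 0.01 and at most 4 in each other setting. Within set 3, for example, 15 mitotic genes were higher in place of 26. With single arrays left out, 6 small list counts moved that far, among them contractile genes higher (1 to 2), stress-response genes lower (3 to 5), ER genes higher (0 to 1) and ribosomal proteins lower (1 to 3), besides the 2 given in the report. Single genes were followed for 271 genes, the 209 searched above for far arrays and others chosen by the same rules. Of their 6494 values under 24 settings, 6441 stayed on their side of the threshold without a called gene turning. Another 49 fell short of it, 4 newly passed it and 0 reversed. Most of those that fell short came from fits within a single set of columns, which hold at most 4 arrays of both groups. Atp2b4 passed the test within the third set (-0.75), which rests on 1 array a group and takes its spread from the vector A arrays, and in no other setting. Where the dimmer group is undetected the fold is only a minimum, and intensities near the top of the scale compress differences.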
